A study of Mus with 17 samples.

Results

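The nuclear genes of the mitochondrial respiratory chain were taken as every gene whose symbol begins with Nduf, Uqcr or Cox4 to Cox8, or is Sdha, Sdhb, Sdhc or Sdhd. This rule on symbols, which uses no measured value, found 76 of the 24937 genes with a value. They are 36 subunits of complex I (7 core and 29 accessory), 4 of complex II, 8 of complex III and 18 of complex IV, of which 7 are isoforms best known from muscle, testis or lung. A further 9 are assembly factors, and Ndufa4l2, a relative of the complex IV subunit Ndufa4, is given apart. The genes lie on 19 chromosomes, with the most, 9, on chromosome 7. The rule does not reach the subunits encoded by mitochondrial DNA, and these are not analysed here.

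The respiratory chain sits in the inner mitochondrial membrane and passes electrons from food to oxygen. Complex I takes electrons from NADH and complex II from succinate, both hand them to ubiquinone, complex III passes them on to cytochrome c, and complex IV gives them to oxygen. Complexes I, III and IV pump protons, and the gradient drives ATP synthesis by complex V. Hepatocytes are rich in mitochondria and use the chain to burn fatty acids and to power glucose and urea synthesis.

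The libraries came from whole liver of 17 male mice of the strain C57BL6/JBomTac, 1 library per mouse. A group of 8 mice was fed western diet and given 42 g/L fructose to drink for 52 weeks, which the labels describe as a model of advanced steatohepatitis, and 9 mice of matching age stayed on standard chow and plain water. All mice were fasted overnight, the labels name no allele beside the strain, and mice were grouped by the treatment label. One label, the source name, reads western diet for all 17 mice, while the treatment label and the series design both give 8 and 9.

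Library totals ran from 3604212 to 9071908.5 counts; the means were 6468850 ± 1756836 (SD) over the 8 western diet libraries and 6683599 ± 1136419 over the 9 from chow. Levels below are in CPM, counts relative to 1e+06 counts of the library, on library sizes scaled by TMM, edgeR's trimmed mean of M values, and the floor, 3 counts in a library, was 0.314 to 0.850 CPM. This floor, the most that a count of 0 allows, covers counting error only, and p-values reflect how mice of a diet differed. Western diet replicate 5 and chow replicate 2 carried transcripts of pancreas, with 10 marker genes summing to 4845 and 14800 CPM; the range over the remaining 15 was 156.7 to 582.3 CPM.

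On the TMM scale 14 of 36 subunits of complex I, 2 of 4 of complex II and 3 of 8 of complex III fell in western diet liver, by modest amounts, and no complex IV subunit passed the test in either direction. The sign depends on that scale: with library sizes alone the median log2 difference of the subunits was 0.034, above 0 but under the 0.12 of all genes. Of the 70 members with enough counts to be tested, 21 fell, 1 rose and 48 did not pass (quasi-likelihood test of edgeR, adjusted over 13204 genes by Benjamini-Hochberg at 0.05, n = 8 and 9). The members that fell were 30% of those tested, beside 23.6% of all genes tested, and the single rise was 1.43% beside 24.8%. The share that fell was therefore near that of all genes, while rises were few. With DESeq2 23 of 74 tested members fell, beside 19.9% of the 17109 genes it tested, and 1 of 74 rose, beside 22.2%. The falls ran from −8.41% in Ndufs8 to −22.2% in Ndufab1, or 1.09-fold to 1.29-fold, with adjusted p from 5.94e-04 to 0.0443. In 14 of the 21, all 8 western diet livers lay below the chow median. The same livers gave the calls, so this describes the calls and adds no support, and it was not counted over all genes.

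The differences were small and mostly of one sign. A negative log2 difference (western diet minus chow) was found in 61 of 70 members, 87.1%, beside 51.0% of all genes. The median was −0.089 for the members and −0.0091 for all genes, and the median size regardless of sign was 0.098 against 0.244. Only Ndufa4l2 was past 1.5-fold, as 21.3% of all genes were. In no member were the livers of the diets fully separated, whereas 5.05% of all genes lay wholly lower and 6.98% wholly higher on western diet. Without western diet replicate 5 the number that fell was 13 in place of 21, 18.6% of the members, beside 21.4% of all genes in that fit. The one-sided pattern was weaker there too, with negative values in 50 of 70 members in place of 61 and a member median of −0.049.

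**Figure D1:**
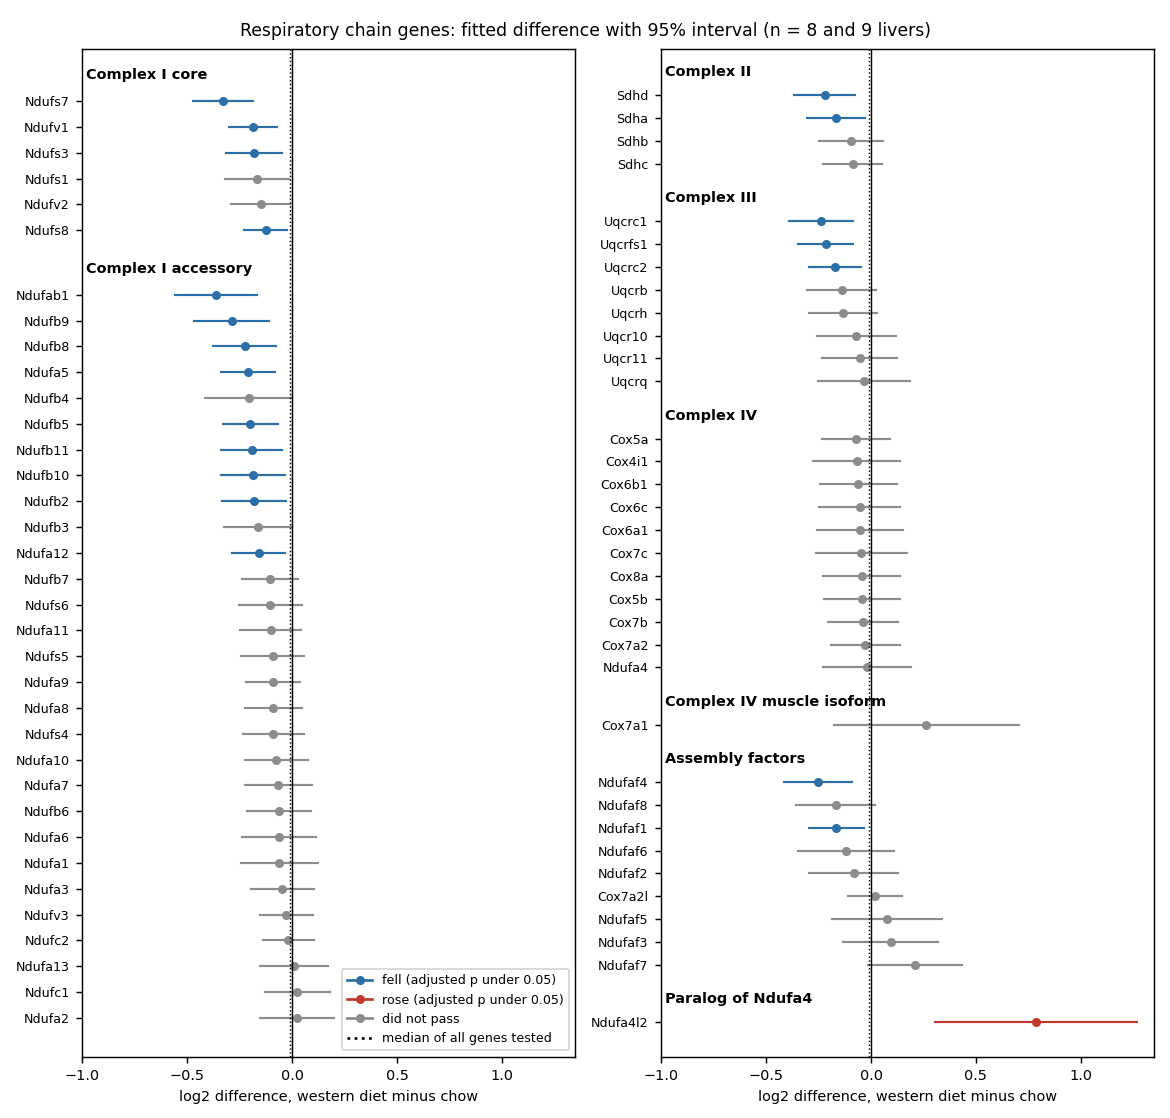
Fitted log2 difference of the tested genes, 1 complex I gene left out, on the TMM scale (x axis, western diet minus chow; bars are 95% intervals, n = 8 and 9 livers), grouped by complex, with the median of all genes tested as a dotted line. The genes that fell belong to complexes I, II and III and the assembly factors, the 11 general complex IV subunits lie between −0.071 and −0.019, and Ndufa4l2 stands alone on the right at 0.79; with library sizes alone 3 genes fell.

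Complex I, the largest of the complexes with 36 of the 70 tested members, held 14 of the 21 that fell. Of its 36 subunits 14 fell (38.9%, beside 23.6% of all genes), none rose and 22 did not pass, with a median log2 difference of −0.12. All 7 core subunits, the nuclear-encoded ones that carry out electron transfer, had negative values and 5 of them fell (median −0.18). Of the 29 accessory subunits, which surround and stabilise the core, 9 fell (median −0.093). Summed over complex I, the level was 3140 ± 288 CPM on western diet and 3477 ± 191 CPM on chow (mean ± SD), a difference of −9.69%. The core subunits alone summed to 1021 ± 65.8 against 1178 ± 58.4 CPM, or −13.27%. Such sums give most weight to the most abundant and longest transcripts.

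Ndufs7 holds the last iron-sulphur cluster of complex I, beside the pocket where ubiquinone is reduced. Ndufs7 (chromosome 10, 80249105 to 80256794, mm10) was at 71.9, 88.4 and 106.0 CPM in the lowest, median and highest western diet liver and at 100.5, 108.2 and 129.1 CPM on chow. The ranges overlapped only between 100.5 and 106.0 CPM, where 1 western diet liver, replicate 1, stood. The mean was 88.2 ± 9.84 against 110.7 ± 9.08 CPM, a log2 difference of −0.33 ± 0.069 (SE, adjusted p = 5.94e-04).

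Ndufv1 binds the flavin that first accepts electrons from NADH. Its levels were 181.5, 203.6 and 231.3 CPM on western diet and 215.4, 233.1 and 245.1 CPM on chow, with all 8 western diet livers below the chow median (log2 difference −0.19 ± 0.054, adjusted p = 0.00812). Ndufs3 and Ndufs8, of which the latter carries iron-sulphur clusters, fell as well (−0.18 and −0.13, adjusted p = 0.0245 and 0.0371). Ndufs1 and Ndufv2, which also carry iron-sulphur clusters, did not pass with edgeR's test (−0.17 and −0.15, adjusted p = 0.0672 and 0.0714). Both were close to the threshold: they fell with DESeq2, and with edgeR's test without the libraries with pancreatic transcripts. Members named outside the naming rule, here and below, were chosen after their values were seen.

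**Figure D2:**
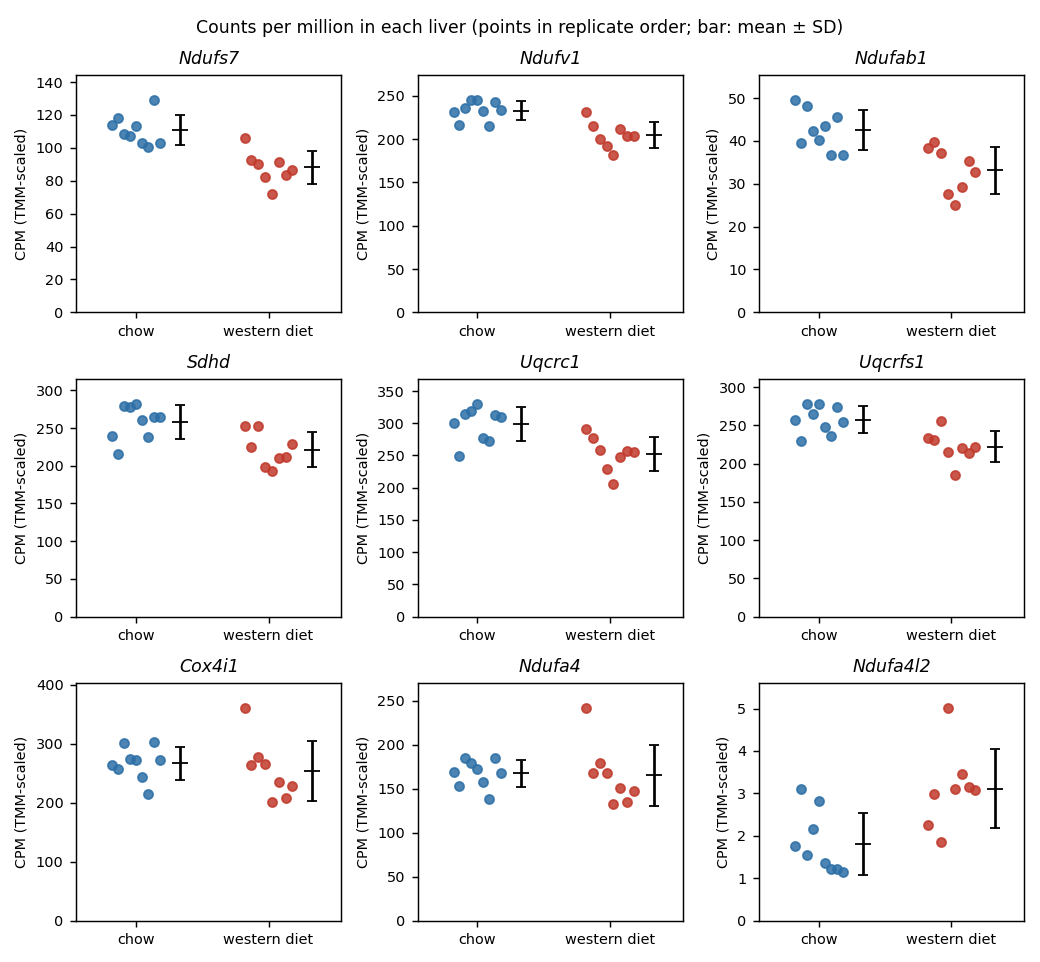
Level in CPM (TMM-scaled, y axes from 0) of 9 genes in each liver, chow left and western diet right, with mean ± SD beside the points. Ndufs7, Ndufv1, Ndufab1, Sdhd, Uqcrc1 and Uqcrfs1 have lower western diet means with overlapping points, Cox4i1 and Ndufa4 overlap broadly, with western diet replicate 1 above and replicates 5 and 7 below every chow liver, and Ndufa4l2 is higher at a level of 1.14 to 5.003 CPM.

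Among the accessory subunits the strongest falls were in Ndufab1, Ndufb9 and Ndufb8. Ndufab1 (chromosome 7, 122086815 to 122101848), the acyl carrier protein of mitochondria, which also serves lipoic acid synthesis and iron-sulphur cluster assembly, was at 24.98, 34.0 and 39.8 CPM on western diet and at 36.6, 42.3 and 49.5 CPM on chow. All western diet livers were below the chow median, and the log2 difference was −0.36 ± 0.094 (33.1 ± 5.41 against 42.5 ± 4.67 CPM, adjusted p = 0.00335). Ndufb9 was at 115.4, 145.7 and 184.8 CPM against 157.0, 181.5 and 207.2 CPM, a wider overlap, and fell by 0.29 ± 0.085 (adjusted p = 0.00852). Ndufb8, a subunit often used as a protein marker of assembled complex I, fell by 0.23 ± 0.072 (94.4 ± 11.9 against 110.2 ± 7.89 CPM, adjusted p = 0.0137).

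The subunits were also sorted into modules of complex I, a grouping chosen after the values were seen and given without a test. The place of some subunits is open to choice, and the counts depend on it. Here Ndufa6, Ndufa7 and Ndufa9, which did not pass (edgeR's test, adjusted p = 0.565, 0.505 and 0.241), were left outside the modules. Placing any of them in a module would lower its share of falls. Ndufab1 was placed in the distal membrane arm. The counts below stand beside the 23.6% of all genes that fell, and 21.4% without western diet replicate 5. In the module that reduces ubiquinone 5 of 5 fell (among them Ndufs7, Ndufs3 and Ndufa5, median −0.21), and 3 of 5 without western diet replicate 5, where Ndufs3 and Ndufs8 were lost. In the distal membrane arm, which pumps protons, 7 of 11 fell (Ndufab1, Ndufb2, Ndufb5, Ndufb8, Ndufb9, Ndufb10 and Ndufb11, median −0.19), and 4 without western diet replicate 5, 7 or 8. Of 17 fits with 1 library removed, Ndufb10 was lost in 12 and Ndufb2 in 11. In the module that oxidises NADH 2 of 8 fell (Ndufv1 and Ndufa12, median −0.13), 4 without chow replicate 2, and 1 without any one of western diet replicates 4, 5, 6 and 7 and chow replicates 1, 5 and 9. Of the other 12 subunits, among them Ndufa1, Ndufa9, Ndufa13, Ndufc1 and Ndufc2, none passed (median −0.064, 2 of them positive, none at an unadjusted p under 0.05).

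Complex II, which is also the succinate dehydrogenase of the citric acid cycle, showed negative values in all 4 subunits, and 2 of them fell. Sdhd (chromosome 9, 50596340 to 50603849), one of the pair that anchors the enzyme in the membrane, was at 193.4, 217.9 and 253.4 CPM on western diet and at 215.3, 264.2 and 281.7 CPM on chow. Every western diet liver was below the chow median, although the ranges overlapped over most of their width (log2 difference −0.22 ± 0.071, adjusted p = 0.0139). Sdha (chromosome 13, 74322255 to 74350240), the flavoprotein that oxidises succinate, was at 542.8, 642.7 and 718.2 CPM against 636.9, 722.6 and 784.7 CPM (−0.17 ± 0.066, adjusted p = 0.0441). That call sat at the threshold: of 17 fits with 1 library removed, 12 lost it. The iron-sulphur subunit Sdhb was at 175 ± 18.8 against 186.7 ± 18.2 CPM (95% interval of the difference −15.75% to 4.16%) and the second anchor, Sdhc, at 196.1 ± 22.2 against 208.2 ± 13.8 CPM (−14.55% to 3.76%), and neither passed. Over the complex the level was 1230 ± 112 against 1368 ± 101 CPM, −10.11%.

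In complex III the subunits of the core and the Rieske protein fell and the small ones did not pass. Uqcrc1 (chromosome 9, 108936648 to 108949641), a core protein that faces the matrix, was at 206.1, 255.8 and 291.9 CPM on western diet and at 248.5, 309.3 and 329.6 CPM on chow (log2 difference −0.24 ± 0.072, adjusted p = 0.0101). Uqcrfs1 (chromosome 13, 30540312 to 30545316), the Rieske iron-sulphur protein that moves electrons to cytochrome c1, was at 185.1, 221.2 and 255.4 CPM against 230.3, 257.2 and 277.8 CPM (−0.22 ± 0.063, adjusted p = 0.00805). Uqcrc2, the other core protein, was at 255.4, 280.6 and 304.5 CPM against 269.5, 315.5 and 344.1 CPM (−0.17 ± 0.0597, adjusted p = 0.0219). In these 3 genes all 8 western diet livers were below the chow median and the ranges overlapped, and each call was kept in all 17 fits with 1 library removed. The span of Uqcrc2 overlaps that of Pdzd9, which was at 2.84 CPM on western diet.

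The other 5 subunits of complex III, Uqcrb, Uqcrh, Uqcr10, Uqcr11 and Uqcrq, had values from −0.14 to −0.032 in log2 (adjusted p from 0.152 to 0.822). Uqcrb and Uqcrh passed only in the fit without western diet replicate 1, in which 5 of the 8 subunits fell in place of 3. The complex summed to 1289 ± 139 against 1435 ± 111 CPM, −10.14%. Cyc1, the cytochrome c1 of the same complex, lies outside the rule on symbols. It fell by 0.25 ± 0.068 (206 ± 18.5 against 244.0 ± 21.8 CPM, adjusted p = 0.00543).

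Complex IV stood at nearly the same mean level on both diets. All 11 general subunits were tested, and none rose or fell with edgeR's test, none had an unadjusted p under 0.05, and none passed with DESeq2 or limma-voom. Their log2 differences were −0.071 to −0.019 (median −0.047, adjusted p from 0.472 to 0.889), and the 95% intervals together spanned −17.5% to 13.9%, which includes falls of the size seen in the other complexes. Cox4i1 (chromosome 8, 120668225 to 120674209), the regulatory subunit that binds ATP, was at 200.6, 249.1 and 359.9 CPM on western diet and at 214.2, 271.7 and 302.9 CPM on chow (−0.069 ± 0.10, adjusted p = 0.597). Ndufa4 (chromosome 6, 11900372 to 11907450), named for complex I but a subunit of complex IV, was at 132.4, 159.6 and 241.5 CPM against 138.8, 169.7 and 185.2 CPM (−0.019 ± 0.0996, adjusted p = 0.889). In both genes the highest western diet liver was replicate 1, and the western diet SD exceeded that on chow.

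Western diet replicate 1, the shallowest library, was above every chow library in all 11 general complex IV subunits, and western diet replicate 5 was below every chow library in all 11. The summed complex IV level was 1448 ± 254 CPM on western diet and 1496 ± 132 CPM on chow, −3.19%. It was −8.27% without western diet replicate 1 and −0.27% without western diet replicate 5. Without replicate 1 the log2 differences were −0.16 for Cox4i1 and −0.12 for Ndufa4 (adjusted p = 0.126 and 0.220), and still no complex IV subunit passed. Over the other complexes, leaving out replicate 1 gave −11.69% for complex I, −12.15% for complex II and −12.61% for complex III, and leaving out replicate 5 gave −7.74%, −8.27% and −8.02%.

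**Figure D3:**
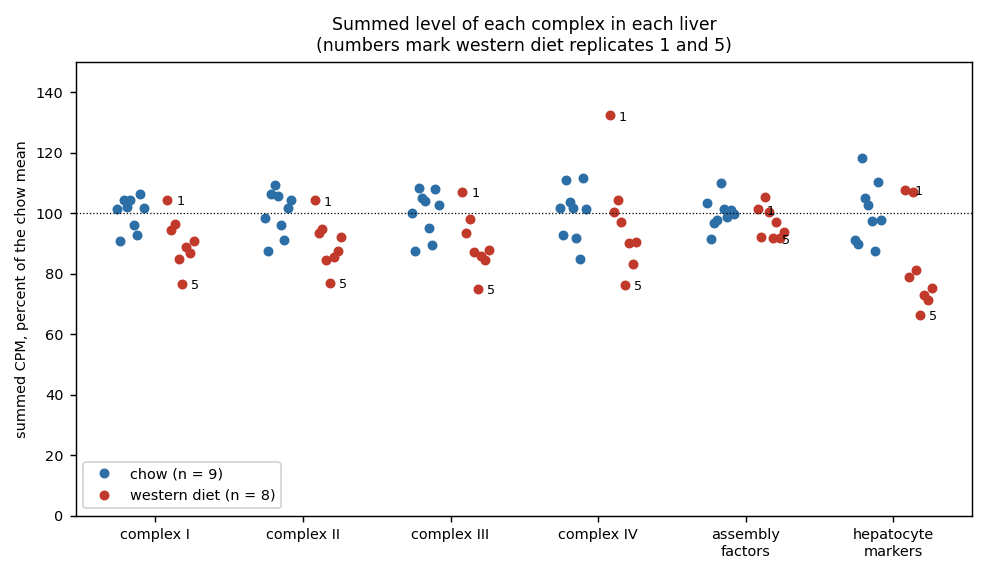
Summed TMM-scaled CPM of each complex, the assembly factors and 12 hepatocyte marker genes in each liver, as a percent of the chow mean (y axis from 0; chow and western diet livers side by side, numbers mark western diet replicates 1 and 5). The mean differences were −9.69%, −10.11%, −10.14% and −3.19% for complexes I to IV, and replicates 1 and 5 form the top and bottom of the western diet points in every complex.

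Within a liver, complexes were also set against each other, which removes any scaling between libraries. The summed core subunits of complex I over the general subunits of complex IV gave 0.561 to 0.809 on western diet (mean 0.719 ± 0.0804) and 0.728 to 0.876 on chow (0.793 ± 0.0513). For complex III over complex IV the ratios were 0.899 ± 0.0596 and 0.961 ± 0.0338, and for complex II over complex IV 0.86 ± 0.0791 and 0.917 ± 0.0527. The lowest ratio in each case was that of western diet replicate 1, at 0.561, 0.777 and 0.72. The diets overlapped in all of these ratios, and whether complex IV differed from the other complexes was not tested.

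The isoforms of complex IV known from other tissues were near or below detection. Cox7a1, the heart and muscle form, was the only one of 7 with enough counts to be tested (2.14 ± 0.763 against 1.75 ± 0.395 CPM, log2 difference 0.26 ± 0.21, adjusted p = 0.316), and the value was 0.12 without western diet replicate 3, at 3.72 CPM. Cox4i2, the form of Cox4i1 found in lung, had 1 to 4 counts in each western diet library and 0 to 2.5 on chow. The span of Cox4i2 overlaps that of Bcl2l1, at 66.4 CPM on western diet and 51.85 CPM on chow. Bcl2l1 itself rose (log2 difference 0.36 ± 0.088, adjusted p = 0.00229 in edgeR's test), and reads of the pair may be shared. Cox6a2 had 0 to 4 counts in both diets, Cox6b2 0 to 9 and 2 to 8, and Cox8b 3 to 12.5 and 2 to 8. Cox7b2 reached 0.5 counts in the western diet libraries and was at 0 on chow, and Cox8c was at 0 in every library. Markers of striated muscle summed to 15.1 to 25.2 CPM on western diet and 13.2 to 31.6 CPM on chow, with none of 5 tested passing (edgeR's test, none at an unadjusted p under 0.05), and Myh2 and Myh7 were at 0 in some libraries.

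Ndufa4l2 was the one member that rose, and it did so at a very low level. The gene (chromosome 10, 127509274 to 127517154) encodes a paralogue of Ndufa4 that is known to be induced by low oxygen. It was at 1.86, 3.09 and 5.003 CPM on western diet and at 1.14, 1.54 and 3.11 CPM on chow, from 8 to 30 and from 6 to 20 counts. All 8 western diet livers were above the chow median, and chow replicates 2, 4 and 5 lay within the western diet range. The mean went from 1.81 ± 0.732 to 3.11 ± 0.926 CPM, a 1.72-fold rise (log2 difference 0.79 ± 0.23, adjusted p = 0.00839), and the call was kept whichever of the 17 libraries was removed. The span overlaps that of Shmt2, a mitochondrial serine enzyme at 269.8 CPM (log2 difference −0.023 ± 0.0695, adjusted p = 0.811), so reads of the pair may be shared.

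The 9 assembly factors moved less evenly than the subunits, with 5 negative and 4 positive values and a median of −0.082. The negative share, 55.6%, was near the 51.0% of all genes. Of the 9, 2 fell (22.2%), near the 23.6% of all genes. Ndufaf4 (chromosome 4, 24898083 to 24905001), an early assembly factor of complex I, was at 37.3, 39.0 and 45.4 CPM on western diet and at 36.2, 49.98 and 54.3 CPM on chow and fell by 0.25 ± 0.079 (adjusted p = 0.0118). All western diet livers were below the chow median, while 1 chow liver, replicate 8, was below all of them. Ndufaf1, which works on the membrane arm, fell by 0.17 ± 0.063 (34.9 ± 2.85 against 39.05 ± 3.05 CPM, adjusted p = 0.0349), a call that 6 of 17 fits with 1 library removed did not make. Ndufaf7, a methyltransferase of complex I assembly, had the highest value (0.21 ± 0.11, adjusted p = 0.112). Cox7a2l (chromosome 17, 83501917 to 83514333), linked to the joining of complexes III and IV in supercomplexes, was at 113.1 ± 9.55 against 111.5 ± 9.06 CPM, with an interval of −7.35% to 10.94%. Whether its protein does so in this mouse strain cannot be read from counts. The factors summed to 275.2 ± 14.7 against 284.9 ± 14.5 CPM, −3.39%.

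Single livers shifted the whole set. Over the 60 tested subunits western diet replicate 5 was the lowest liver of its diet in 53, and replicate 1 the highest in 45. As a median over these 60 subunits of the log2 distance to the chow mean, western diet replicates 1 and 3 were at 0.14 and 0.019 and the other 6 between −0.37 (replicate 5) and −0.051, while the chow livers ran from −0.13 to 0.12. Summed over all members the level was 6203 CPM in western diet replicate 5 and 8861 CPM in replicate 1, and 7257 to 8601 CPM on chow. Without western diet replicate 5 complex I had 8 falls among its 36 subunits in place of 14, in a fit where 21.4% of all genes fell. Without replicate 7 it had 9, where 21.6% of all genes fell.

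Hepatocyte markers moved with these levels. Of 12 such markers 4 fell: albumin (Alb), Serpina1a, the liver transcription factor Hnf4a and Hal. That is 33.3%, beside 23.6% of all genes. None rose, and 8 did not pass, among them Apoa1, Ttr, Fah and Cyp2e1. All 12 markers were negative (median −0.23). Their sum was 21920 and 21760 CPM in western diet replicates 1 and 3, 13530 CPM in replicate 5 and 14520 to 16540 CPM in the other 5, and 17840 to 24090 CPM on chow, with no marker at 0 in any library. Markers of macrophages rose in 10 of 10 (1254 to 1806 CPM summed against 394.8 to 683.7), of stellate cells in 9 of 10 (834.6 to 1524 against 570.6 to 731.4) and of bile duct cells in 6 of 7 tested (224.2 to 554.9 against 106.9 to 175.2). Of all genes tested 24.8% rose. In whole liver, fewer hepatocytes and less of a transcript in each hepatocyte cannot be told apart, and the part of the cell mixture in these differences was not tested.

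The direction of the subunits depended on how libraries were scaled. As a raw share of all counts the members differed by less than the spread between livers, at 0.769 ± 0.055% on western diet (0.694% to 0.868%) and 0.772 ± 0.037% on chow (0.701% to 0.808%). With library sizes alone, without TMM, the median of all genes moved from −0.0091 to 0.12, and rises were 73.5% of all calls in place of 51.2%. On that scale the subunit median was 0.034, 28 of 70 members were negative, 3 fell (among them Ndufs7 and Ndufab1) and 2 rose (Ndufa4l2 and Ndufaf7, the latter by 0.34, adjusted p = 0.0211), beside 12.2% of all genes lower and 34.0% higher. Relative to the median of all genes the subunits were at −0.082 with TMM and −0.084 with library size alone, and 56 of 60 lay below that median on both scales. With TMM and without western diet replicate 5 they were at −0.047, and 44 of 60 lay below it. The falls above are therefore relative to the other genes of the same libraries.

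**Figure D4:**
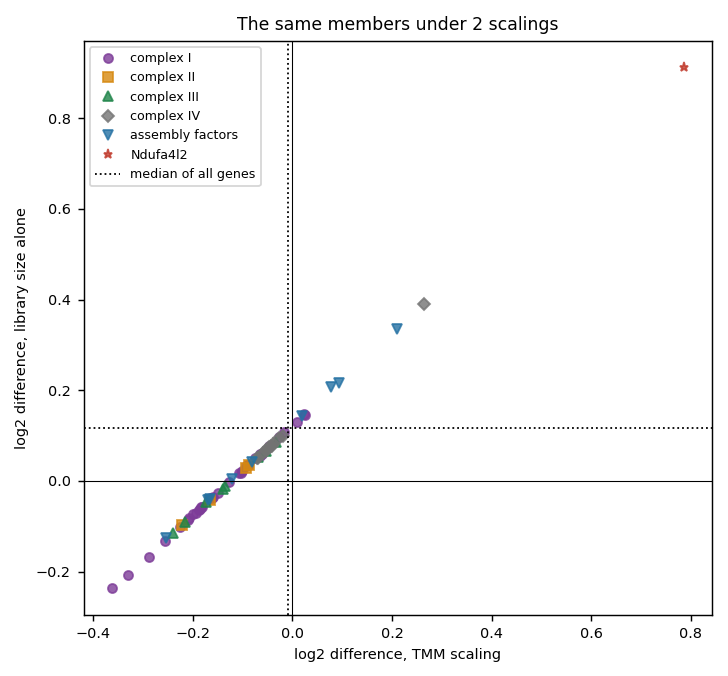
Log2 difference of each tested member with TMM factors (x axis) and with library size alone (y axis), with dotted lines at the median of all genes on each scale (−0.0091 and 0.12). The points shift upward together; most subunits lie below the all-gene median on both axes, while 28 of 70 members are below 0 on the y axis and 61 of 70 on the x axis.

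Lists of genes that work beside the chain are given for comparison, on the TMM scale and beside the 23.6% of all genes that fell and the 24.8% that rose. Of 39 further assembly factors and copper or haem chaperones, 10 fell (25.6%, near the share of all genes) and 1 rose (median −0.094). Coa5, needed for complex IV assembly, was at 146.2, 164.7 and 172.3 CPM on western diet and at 188.3, 206.9 and 270.5 CPM on chow, fully separated (log2 difference −0.40 ± 0.069, adjusted p = 7.88e-05). Sdhaf3, an assembly factor of complex II, fell by 0.50 ± 0.15 from 7.98 to 5.603 CPM (adjusted p = 0.0094). Sdhaf1, another, rose by 0.20 ± 0.083 (adjusted p = 0.0487), a call at the threshold that 12 of 17 fits with 1 library removed did not make (without each western diet replicate but 3, and chow replicates 3, 4, 7, 8 and 9).

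Of 21 genes of cytochrome c and of complex V, the ATP synthase, 5 fell (23.8%, near the share of all genes) and 2 rose (median −0.12). Cycs, the cytochrome c that shuttles electrons between complexes III and IV, was at 47.6 ± 5.83 against 56.6 ± 5.66 CPM (log2 difference −0.25 ± 0.078, adjusted p = 0.0115). Atpif1, which stops the synthase from running backward, was at 16.6, 18.9 and 22.1 CPM on western diet and at 8.48, 10.9 and 12.6 CPM on chow, and was the gene of this list whose diets were fully separated. It rose 1.76-fold (0.81 ± 0.095, adjusted p = 1.13e-06). Atp5s rose by 0.32 ± 0.11 (adjusted p = 0.0265). The number that fell was 11 without western diet replicate 1 and 2 without western diet replicate 5 or without chow replicate 5, and it was 3 without western diet replicate 7 or chow replicate 8.

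Of 16 genes of the citric acid cycle and pyruvate dehydrogenase, 5 fell (31.2%) and 1 rose (median −0.13). Dlst and Ogdh, partners in the 2-oxoglutarate dehydrogenase complex, had fully separated diets, at 275.6 ± 30.3 against 375.5 ± 23.8 CPM for Dlst (−0.45 ± 0.069, adjusted p = 2.55e-05) and 325.8 ± 32.8 against 422.1 ± 23.2 CPM for Ogdh (−0.37 ± 0.065, adjusted p = 9.35e-05). Suclg2, the GTP-forming subunit of succinyl-CoA synthetase, rose by 0.18 ± 0.0703 (adjusted p = 0.036), a call that was lost without any one of western diet replicates 1, 4 and 8 and chow replicates 2, 6, 7 and 8. Citrate synthase Cs, a common reference for mitochondrial content, was at 216 ± 29.3 against 191.4 ± 22.2 CPM (0.17 ± 0.086, adjusted p = 0.101).

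Regulators of mitochondrial gene expression and biogenesis held the largest share of falls among these 5 lists, 11 of 17 (64.7%), with none rising in edgeR's test (1 had an unadjusted p under 0.05, 1 passed with limma-voom and none with DESeq2; median −0.23). Tfam, which packages mitochondrial DNA and starts its transcription, was at 65.5, 77.4 and 81.8 CPM on western diet and at 85.3, 108.4 and 124.2 CPM on chow, with no overlap (log2 difference −0.49 ± 0.068, adjusted p = 7.56e-06). The coactivator Ppargc1b fell by 0.84 ± 0.19 (7.22 ± 1.204 against 13.0 ± 4.90 CPM, adjusted p = 0.00115) and the nuclear receptor Esrrg by 0.62 ± 0.15 (adjusted p = 0.00214). The related coactivator Ppargc1a was at 12.3, 23.9 and 51.7 CPM against 15.1, 21.1 and 30.6 CPM and did not pass (0.24 ± 0.21, adjusted p = 0.367; 0.025 without western diet replicate 3, which held 51.7 CPM). The other regulators of this list that fell were Ppara, the receptor that drives fatty acid oxidation, Yy1, Gabpa, Esrra, Polrmt, Tfb2m, Polg and Twnk.

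Among 24 genes of mitochondrial membranes, protein import, chaperones and carriers 14 fell (58.3%) and 2 rose (median −0.17). Slc25a13, the aspartate and glutamate carrier of liver, fell by 0.55 ± 0.079 (339.1 ± 44.5 against 496.1 ± 40.6 CPM, adjusted p = 1.27e-05), and Tomm70a, an import receptor of the outer membrane, by 0.43 ± 0.069 (adjusted p = 4.51e-05), both with fully separated diets. Slc25a4, the ADP and ATP carrier best known from heart and muscle, rose by 0.84 ± 0.13 (30.3 ± 5.71 against 17.03 ± 3.68 CPM, adjusted p = 2.15e-05). Prdx3, a mitochondrial peroxidase, rose by 0.37 ± 0.067, at 164 to 223.3 against 120.4 to 156.6 CPM. The porin Vdac1 was at 258.7 ± 25.1 against 274 ± 23.5 CPM (−0.083 ± 0.069, adjusted p = 0.335). With library size alone the falls were 5 in this list, 6 among the regulators, 3 in the citric acid cycle, 0 for cytochrome c and complex V, and 4 among the further assembly factors.

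**Figure D5:**
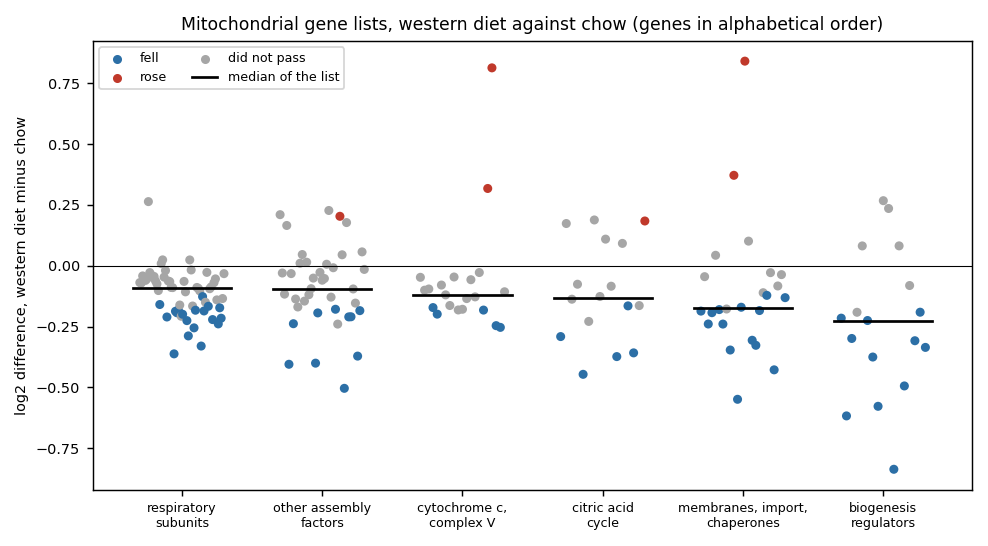
Log2 difference (y axis, western diet minus chow) of every tested respiratory chain subunit and of the genes of 5 lists of neighbouring mitochondrial genes, 1 point per gene, coloured by call, with a bar at the median of each list. The list medians lie at −0.091 for the subunits and from −0.094 to −0.23 for the other lists, and single genes such as Atpif1 (0.81) and Slc25a4 (0.84) lie far above their list.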

How the data were processed

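The authors deposited 1 table of expected counts for each liver, by gene symbol, in steps of 0.5 and unscaled. The tools named are FastQC, MultiQC, HOMER and STAR 2.4.1c, with build mm10, per the submitters' processing notes. Options, strand setting and annotation release: not given in the sources used here. Genes that overlap can therefore share reads: the spans of 23 of the 76 members overlap another annotated gene, 14 of them a counted one. Positions are those of a RefSeq table of GRCm38.p6 (mm10), which matched all 76 symbols.

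Counts were rounded and 13204 of 24937 genes were kept by filterByExpr. Two-sided quasi-likelihood tests were made with edgeR 4.0.16 in R 4.3.3 (TMM factors, robust dispersions, diet alone as design, Benjamini-Hochberg adjustment over all genes at 0.05). A log2 difference is western diet less chow, with a prior count of 0.125; its SE is its size divided by the root of the F statistic. The biological coefficient of variation was 18.97%. The alternatives, among them DESeq2 1.42.0 and limma-voom 3.58.1, are given in the closing section. Summaries and plots used Python 3.11.15 with pandas 2.3.3, numpy 2.4.6 and matplotlib 3.10.9. The test was also run on simulated counts of the 13204 genes tested. There it recovered 14.1% of 99 genes changed 1.25-fold and 95.8% of 96 changed 2-fold, with 0 calls among 12865 unchanged genes. A member that did not pass can therefore still differ by that smaller size. Far fewer genes changed there than were called in the data, so the recovery in the data may differ.

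Members and lists were chosen with earlier results of these data known, so lists are described by counts and medians without a list test. Named with values are, per class, up to 3 genes with the largest change past the threshold in each direction and the most abundant gene; all complex II subunits, Uqcrc1, Uqcrc2, Uqcrfs1, Cox4i1, Ndufa4, Ndufa4l2, Cox7a2l and the tissue isoforms; and, per neighbouring list, up to 2 genes in each direction with Cs, Vdac1, Tfam, Ppargc1a, Cycs and Cyc1. Members not tested or not passing are named where 5 or fewer of a class do so. One complex I gene is counted throughout and is not reported by name here.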

Additional observations from a re-analysis of the deposited data

Results flagged for a closer look

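Of 102 groups of 8 or 9 livers examined, 8 held 1 liver that lay far from the rest of its diet (Dixon's rule at 95%), where chance gives about 1 in 20. In western diet replicate 1, the shallowest library, Ndufa4 was at 241 CPM against 132 to 179 CPM in the other 7 livers and Sdhc at 244 CPM against 164 to 200 CPM. In western diet replicate 3, Ndufaf4 was at 45.4 CPM (others 37.3 to 40.0), Cox7a1 at 3.72 CPM (others 1.15 to 2.37) and Ppargc1a at 51.7 CPM (others 12.3 to 28.9). In western diet replicate 5, which carries pancreatic transcripts, Slc25a4 was at 42.8 CPM (others 23.2 to 31.6). On chow, Ndufaf1 was at 46.0 CPM in replicate 5 (others 35.2 to 40.6) and Coa5 at 270 CPM in replicate 3 (others 188 to 226). What set these livers apart was not tested.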

How the results depend on the processing

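The number of members that fell was 21 with size factors of the DESeq2 type (RLE), without the 50 most abundant genes in the scaling, with limma-voom, with no low count filter, with a filter of 1 CPM in 8 libraries and with counts doubled in place of rounding, each time with all 21 shared, and 23 with DESeq2 (21 shared). In the fits with 21 falls, 16.3% of all genes fell with no low count filter and 23.3% to 24.1% in the others. The number of members that fell was 17 of 70 with the clock genes' principal component as a covariate, where 23.5% of all genes fell. It was 18 of 70 without both libraries with pancreatic transcripts (16 shared), where 22.4% of all genes fell. Of the 22 called members 14 kept the call in all 17 fits that left out 1 library; Ndufs7, Ndufab1 and Ndufa4l2 were among those that also kept it with library size alone.

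Counts moved as follows. For the counts at an adjusted p under 0.01 the share of all genes was not worked out, so they stand without it. At an adjusted p under 0.01 the falls were 7 members, 6 in complex I, 0 in complex II, 1 in complex III and 0 assembly factors; among neighbouring lists 5 further assembly factors, 1 of cytochrome c and complex V and 7 of membranes and import fell, and rises were 0 further assembly factors, 1 of cytochrome c and complex V and 0 of the citric acid cycle. With library size alone the falls were 3 members, 3 in complex I, 0 in complexes II and III and 0 assembly factors, and 4, 0, 3, 6 and 5 in the further assembly factors, cytochrome c and complex V, citric acid cycle, regulators and membranes; the rises were 2 members, 1 assembly factor, 5 further assembly factors, 5 of the citric acid cycle and 1 regulator, and the subunit median was 0.034. With no low count filter 2 members rose, 1 of them in complex IV (Cox4i2, at 0 to 4 counts, whose span overlaps that of Bcl2l1). In that fit 0 further assembly factors, 1 of cytochrome c and complex V and 0 of the citric acid cycle rose. With the clock covariate 2 members rose (1 an assembly factor, Ndufaf7), as did 3 further assembly factors and 2 of the citric acid cycle, while 1 of complex II and 1 assembly factor fell. Without the pancreatic libraries 1 of complex II and 1 assembly factor fell and 1 regulator rose; limma-voom also gave 1 rising regulator. Further assembly factors that rose were 0 with DESeq2, with the 1 CPM filter and with doubled counts.

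Leaving out 1 library at a time gave 13 to 24 falling members and 1 rising, 8 to 16 falls in complex I, 1 to 2 in complex II, 3 to 5 in complex III, 1 to 3 assembly factors, and a subunit median of −0.14 to −0.0502. In these fits 21.4% to 24.5% of all genes fell and 23.3% to 25.6% rose. Further assembly factors gave 0 to 2 rises and 7 to 12 falls, cytochrome c and complex V 1 to 2 and 2 to 11, the citric acid cycle 0 to 2 and 4 to 7, regulators 0 to 1 and 9 to 11, and membranes 2 to 2 and 11 to 15. With library size alone, which shifts all genes upward, 33 members turned from negative to positive, and 15 changed sign in at least 1 leave-one-out fit, none of them called. Among the genes named by the rule these were, with library size alone, Cox4i1 (0.05), Sdhb (0.029), Sdhc (0.036), Ndufa4 (0.099) and Vdac1 (0.039); Cox7a2l with no low count filter (−0.0011) and without western diet replicate 1 (−0.0099, in a leave-one-out range up to 0.052); and Ndufa4 without the pancreatic libraries (0.0069), without western diet replicates 5, 7 and 8 (0.027, 0.023 and 0.0036) and without chow replicate 8 (0.0005), in a leave-one-out range from −0.12 to 0.027. Where not shown by fewer samples or genes, the cause was not tested.

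No paired analysis was possible because no label ties a mouse of one diet to one of the other. A correction for transcript length was not run, because only gene spans were at hand. The intervals of the complex IV subunits reach −17.5%, so an equal level of complex IV on both diets is not shown.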
